A study of Homo sapiens with 9 samples.

Results

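Chemokine signalling genes were followed in LiSa-2 cells, a human liposarcoma line, after digestion of the pericellular matrix with hyaluronidase. The 10 genes were 5 CC chemokines (CCL2, CCL5, CCL7, CCL8 and CCL20), 3 CXC chemokines (CXCL10, CXCL11 and CXCL12) and both receptors of CXCL12 (CXCR4 and ACKR3). They were taken by name: every probe set whose single platform gene symbol is in this set was used, 18 of the 54675 probe sets, for 10 of 19775 genes. Control cells received PBS and were harvested at 24 h. Treated cells received bovine testicular hyaluronidase (HAase) at 400 µg/mL for 6 h or for 24 h. Each group had 3 arrays, 9 in all, of 1 unmodified cell line, in medium with bovine serum, and no group received inactivated enzyme.

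Chemokines are small secreted proteins that guide migrating cells through G-protein-coupled receptors, and they are held on the cell surface and in the matrix by glycosaminoglycans. CCL2, CCL7 and CCL8 attract monocytes, CCL5 attracts T cells and monocytes, with CCR1 among its receptors, and CCL20 is the chemokine ligand of CCR6. CXCL10 and CXCL11 are interferon-inducible ligands of CXCR3. CXCL12, made by stromal cells including those of fat, signals through CXCR4, while ACKR3 binds and removes CXCL12 and CXCL11 without classical G-protein signalling.

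Promoter sequence is shown for CCL20, the chemokine that rose most, and for CXCL10 and CXCL11, which share its NF-kappaB type motif. It is also shown for CXCL12 and CXCR4, which lack the motif. CCL7 and CCL8 lack it too and are not shown. CXCL10 and CXCL11 passed the test below as higher in no comparison. The windows are the 250 bases before the gene start, 5′ to 3′ on the gene's strand, from RefSeq (GRCh38.p14), and 7 of the 10 genes were matched. CCL2, CCL5 and ACKR3 were not matched. Capitals mark matches to the kappaB consensus on either strand and, in CXCL10 only, the interferon-stimulated response element, which is the first of its 3 capitalised stretches and overlaps neither of the others.
CCL20, chr2:227813592-227813841, plus strand: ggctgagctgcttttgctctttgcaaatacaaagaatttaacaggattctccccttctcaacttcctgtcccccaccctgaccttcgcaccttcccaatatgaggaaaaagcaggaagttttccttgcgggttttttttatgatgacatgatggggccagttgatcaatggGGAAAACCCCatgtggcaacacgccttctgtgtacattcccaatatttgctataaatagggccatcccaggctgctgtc
CXCL10, chr4:76023498-76023747, minus strand: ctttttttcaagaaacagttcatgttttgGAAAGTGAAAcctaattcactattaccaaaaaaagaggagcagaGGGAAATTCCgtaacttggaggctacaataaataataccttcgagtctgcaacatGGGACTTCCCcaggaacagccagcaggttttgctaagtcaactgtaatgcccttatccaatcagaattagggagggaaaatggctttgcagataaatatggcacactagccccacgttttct
CXCL11, chr4:76036071-76036320, minus strand: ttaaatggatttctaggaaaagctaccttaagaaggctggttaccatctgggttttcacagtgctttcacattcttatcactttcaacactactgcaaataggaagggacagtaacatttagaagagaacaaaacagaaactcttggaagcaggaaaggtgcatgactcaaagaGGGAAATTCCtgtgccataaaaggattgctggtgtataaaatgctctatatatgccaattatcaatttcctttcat
CXCL12, chr10:44385098-44385347, minus strand: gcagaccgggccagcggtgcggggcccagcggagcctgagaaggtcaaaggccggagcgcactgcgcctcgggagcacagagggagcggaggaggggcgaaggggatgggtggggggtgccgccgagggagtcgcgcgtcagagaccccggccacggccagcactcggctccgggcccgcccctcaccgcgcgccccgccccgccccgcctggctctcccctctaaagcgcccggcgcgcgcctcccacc
CXCR4, chr2:136118150-136118399, minus strand: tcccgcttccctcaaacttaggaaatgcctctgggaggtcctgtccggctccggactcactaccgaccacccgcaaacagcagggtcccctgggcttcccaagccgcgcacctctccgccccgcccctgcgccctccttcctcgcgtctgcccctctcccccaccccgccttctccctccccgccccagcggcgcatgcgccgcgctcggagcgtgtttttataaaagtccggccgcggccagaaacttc
The kappaB consensus was present in 3 of the 7 matched promoters (CCL20, CXCL10 and CXCL11) and in 9.57% of all 27305 promoter windows of the same length. In CCL20 the match lay 79 to 70 bases before the start, and in CXCL11 76 to 67 bases before it. CXCL10 held matches at 177 to 168 and at 122 to 113 bases. The response element of CXCL10, at 221 to 212 bases, was the only match among the 7, against 3.07% of all windows. The AP-1 motif TGANTCA was found in CCL7 and CXCL11 (6.6% of all windows), the gamma-activated site TTCNNNGAA in CCL7, CCL8 and CXCL11 (6.78%) and the hypoxia core ACGTG in CXCL10 (18.7%), each on either strand. A match is a description of the letters and not a binding site.

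All values below are linear signals of a probe set, scaled per array by the authors, so the level of a probe set was compared between arrays. A signal was taken as measured when it exceeded the brightest of 27 control probe sets for bacterial transcripts on its own array, a control level that lay between 34.2 and 65. Arrays of the same group correlated at 0.989 or more across genes and arrays of different groups at 0.974 or less. All 8 markers of fat cells and liposarcoma examined were above the control level on every PBS and 6 h array, and 7 of 8 on every 24 h array, ADIPOQ being above it on 1 of 3. Their summed signal ran from 63786 to 66208 in PBS, 52631 to 54992 at 6 h and 36863 to 41559 at 24 h. FABP4 made up the largest part, with means of 33295, 31931 and 26097. PLIN1, ADIPOQ, PPARG, CEBPA and LPL fell further in proportion from PBS to 24 h, PLIN1 from a mean of 1749 to 117.6. MDM2 and CDK4 moved little, from 985.8 to 1036 and from 7786 to 7266. The 3′ minus 5′ log2 difference is a sign of RNA quality. In the PBS, 6 h and 24 h groups it averaged 0.01, -0.02 and -0.11 for GAPDH and 1.64, 1.37 and 1.52 for ACTB. Exact permutation p-values against PBS were 0.3 for GAPDH at 6 h and for ACTB at 24 h. For GAPDH at 24 h and ACTB at 6 h they were 0.1, the smallest that 3 against 3 arrays allow. The part of RNA quality in the results below was not tested. Fewer cells of a type and less RNA per cell cannot be told apart in these bulk samples.

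**Figure D1:**
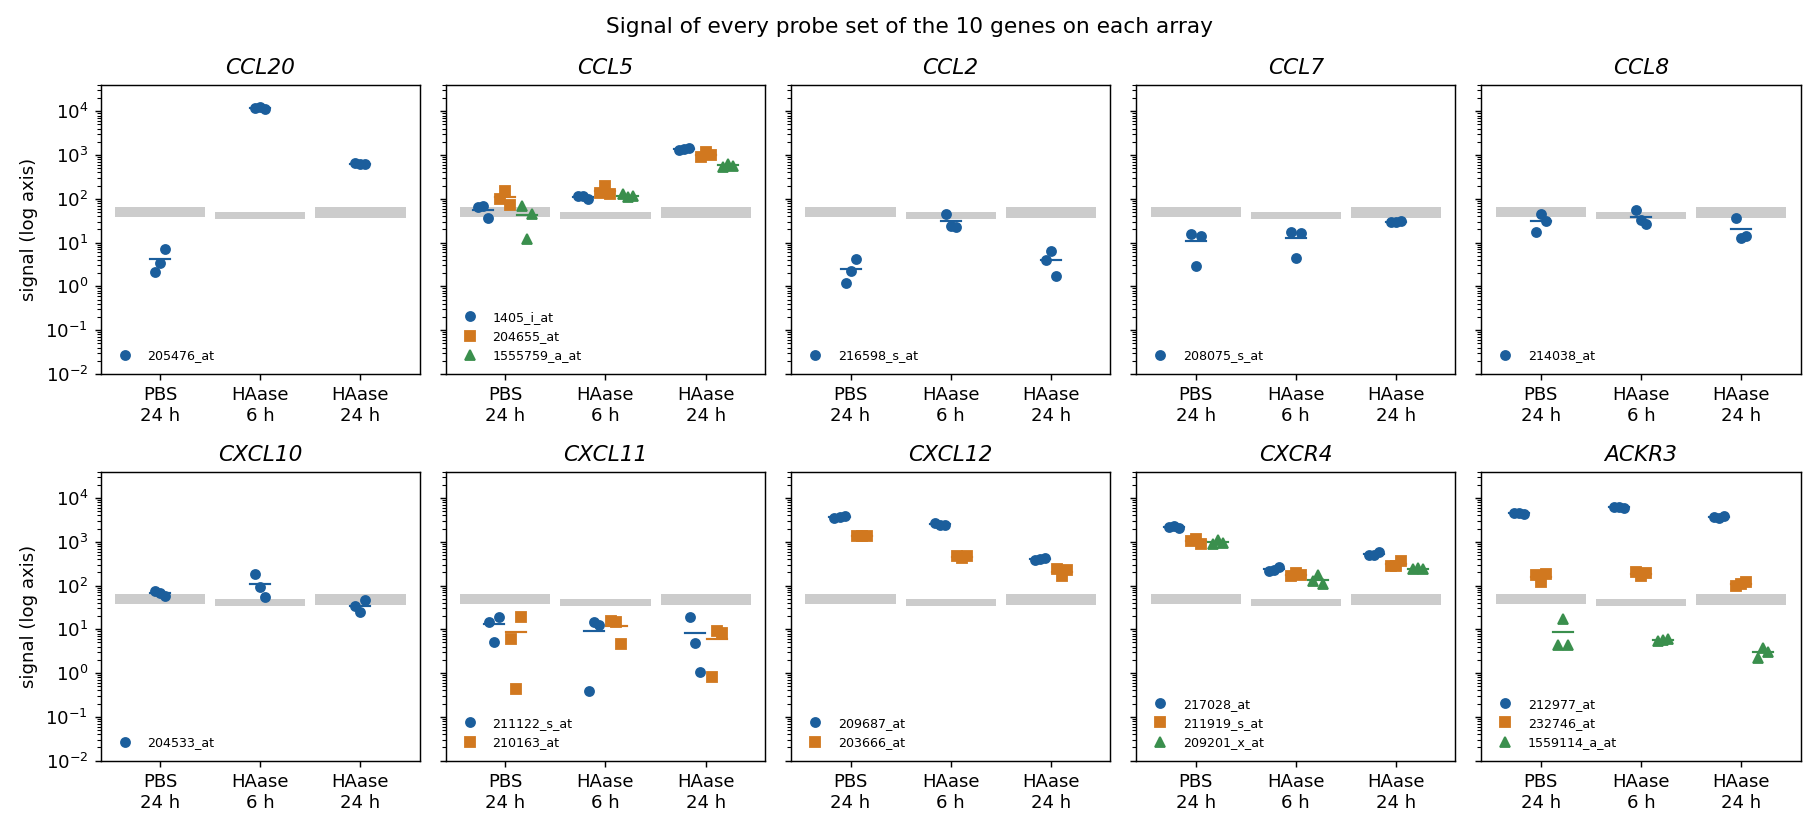
Signal of all 18 probe sets on each array (points, log axis; short bars are means of 3 arrays; the grey band is the range of the control level in that group). CCL20 lies below the band in PBS and between 11541 and 12230 at 6 h, CCL5 is highest at 24 h, CXCL12 and CXCR4 are highest in PBS, and CCL2, CCL7 and CXCL11 stay at or below the control level on every array.

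Among the ligands CCL20 moved most, and it rose early and fell back. In PBS its signal was 2.13, 3.38 and 7.12, below the control level on all 3 arrays. At 6 h it was 11920, 12230 and 11541, and at 24 h it was 641, 635.2 and 615.3. The groups did not overlap, and the 24 h arrays lay between the others. Against the control level the rise was at least 183-fold at 6 h and at least 9.95-fold at 24 h (limma adjusted p = 2.41e-09 and 1.50e-08). From 6 h to 24 h CCL20 fell by 4.20 ± 0.09 on the log2 scale (SE, adjusted p = 2.09e-07), the largest fall among the 13842 genes tested in that comparison. Its receptor gene CCR6 was at or below the control level on all 9 arrays, with signals up to 30.7.

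CCL5 rose late. Its representative probe set, 204655_at, gave 100.3, 152.4 and 72.3 in PBS, 138.3, 192.5 and 129.1 at 6 h, and 901.8, 1174 and 990 at 24 h. The 6 h arrays overlapped those of PBS, and the 24 h arrays lay above all others. The 24 h rise was 8.60-fold (log2 fold change 3.10 ± 0.24 SE, limma adjusted p = 2.92e-05), and from 6 h to 24 h CCL5 rose 6.17-fold (adjusted p = 0.000153). At 6 h this probe set gave 0.48 ± 0.24 and did not pass (adjusted p = 0.155).

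The other CCL5 probe sets passed at 6 h, so the early call depends on the probe set. 1405_i_at averaged 56.8 ± 17.1 in PBS, 109.3 ± 9.22 at 6 h and 1358 ± 78.4 at 24 h (SD, n = 3 each), and 1555759_a_at averaged 42.2 ± 28.9, 117.2 ± 10.5 and 580.1 ± 41.6. In the fit across all probe sets their 6 h log2 fold changes were 0.81 and 1.33 (limma adjusted p = 0.0154 and 0.0351), though in PBS they exceeded the control level on only 2 and 1 of 3 arrays. At 24 h all 3 probe sets passed as higher, with log2 fold changes from 3.10 to 4.27. CCL5 is also a product of leukocytes, so a leukocyte marker list was set beside it. Its summed signal over 7 genes ran from 327.2 to 391.8 in PBS, 465.7 to 490.9 at 6 h and 987.1 to 1027 at 24 h, with 4 of 7 genes above the control level on every array. CD163, a scavenger receptor gene of macrophages, had the highest mean of these at 24 h, with means of 81.2, 149.7 and 508.1 in PBS, 6 h and 24 h. CSF1R averaged 81.0, 114.9 and 182.3, LCP1 75.0, 96.9 and 147.7, ITGAM 74.0, 61.4 and 80.5, and CD3E 9.93, 27.5 and 46.2. CD3E exceeded the control level on 0, 1 and 2 of 3 arrays, and CD14 on 1, 0 and 1. PTPRC, the pan-leukocyte marker, was at or below the control level on all 9 arrays. The summed signal of 5 endothelial markers ran from 276.7 to 341.9, 373.9 to 427.2 and 420.3 to 442.4 in the same groups, and that of 7 epithelial markers from 453.9 to 715.7, 367.3 to 426.4 and 228.2 to 338.7. The part of these markers in the CCL5 result was not tested.

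CCL2, CCL7 and CCL8, monocyte chemoattractants whose genes lie in 1 cluster with CCL11 on chromosome 17, were dim throughout and did not pass the filter on low values. CCL2 gave 1.17, 2.20 and 4.23 in PBS, 45.1, 23.6 and 22.3 at 6 h, and 3.91, 6.29 and 1.72 at 24 h. The 6 h arrays stood above all others but below the control level, so no fold is given. In the unfiltered fit over probe sets CCL2 passed at 6 h against PBS and at 24 h against 6 h (limma adjusted p = 0.00264 and 0.00586). CCL7 was at 15.9, 2.86 and 14.01 in PBS, 17.4, 4.40 and 16.1 at 6 h, and 29.8, 29.6 and 31.4 at 24 h, also below the control level, and it did not pass (adjusted p = 0.0568 at 24 h against PBS). CCL8 ranged from 12.6 to 54.6 over the 9 arrays, above the control level on 1 PBS and 1 6 h array, and its groups overlapped. CCL11, the neighbour between CCL7 and CCL8, was at or below the control level on all 9 arrays.

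CXCL10 stayed near the control level and spread widely at 6 h. Its signal was 75.5, 69.4 and 57.7 in PBS, 180.4, 92.1 and 55.3 at 6 h, and 33.8, 24.5 and 46.8 at 24 h. It exceeded the control level on 2, 3 and 1 of 3 arrays in these groups. The 24 h arrays lay below all others, whereas the 6 h arrays overlapped PBS. Against PBS CXCL10 did not pass at 6 h (log2 fold change 0.46 ± 0.34 SE, limma adjusted p = 0.319) or at 24 h (-0.73 ± 0.34, 0.130). The 24 h comparison passed without 6 h replicate 1, the array at 180.4 (adjusted p = 0.0319), and when only the 2 groups compared were fitted (0.0224). From 6 h to 24 h CXCL10 fell by 1.19 ± 0.34 (adjusted p = 0.0299). That call was lost without 6 h replicate 2 (0.0637), without 24 h replicate 1 or 2 (0.0728 and 0.0934) and when only those groups were fitted (0.0704). In the fit across all probe sets it did not pass (0.0643). CXCL11, the gene next to CXCL10, gave signals between 0.396 and 19.4 on its 2 probe sets, at or below the control level on all arrays, and passed in no comparison. CXCR3, the receptor of both, exceeded the control level on 1 of 9 arrays.

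CXCL12 was well above the control level in PBS and fell in treated cells. Probe set 209687_at gave 3545, 3727 and 3823 in PBS, 2686, 2376 and 2465 at 6 h, and 384.6, 407.2 and 420.3 at 24 h. The groups did not overlap, and the 24 h arrays were lowest. It was 1.47-fold lower at 6 h (log2 fold change -0.56 ± 0.07 SE, limma adjusted p = 0.000326) and 8.84-fold lower at 24 h (-3.14 ± 0.07, 3.69e-08). From 6 h to 24 h CXCL12 was 6.01-fold lower (5.37e-07).

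The second CXCL12 probe set fell more by 6 h and less by 24 h. 203666_at gave 1366, 1389 and 1365 in PBS, 461.3, 433.5 and 474.6 at 6 h, and 232.8, 163.1 and 232.5 at 24 h. In the fit across all probe sets its log2 fold change was -1.56 ± 0.13 at 6 h and -2.64 ± 0.13 at 24 h (limma adjusted p = 0.000194 and 8.03e-06). Relative to 209687_at on the same array, 203666_at changed by -0.999 on the log2 scale from PBS to 6 h and by 0.50 from PBS to 24 h. These within-array differences overlapped between no 2 groups, with an exact two-sided permutation p of 0.1 in each comparison, the smallest that 3 against 3 arrays allow. Both probe sets were thus lower in treated cells, by unequal amounts at both times.

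The receptor gene CXCR4 was lowest at 6 h, and at 24 h it lay between that level and PBS. Probe set 217028_at gave 2192, 2254 and 2094 in PBS, 219, 226.3 and 269.5 at 6 h, and 502.3, 507.7 and 589.1 at 24 h. The groups did not overlap, and the 6 h arrays were lowest. CXCR4 was 8.67-fold lower at 6 h, the second largest fall among all genes tested (log2 fold change -3.12 ± 0.09 SE, limma adjusted p = 2.44e-07), and 4.01-fold lower at 24 h (-2.003 ± 0.09, 1.69e-06). From 6 h to 24 h it rose 2.16-fold (9.37e-05). The other CXCR4 probe sets, 211919_s_at and 209201_x_at, fell by 2.44 and 2.72 on the log2 scale at 6 h and by 1.69 and 1.94 at 24 h, and rose by 0.75 and 0.78 from 6 h to 24 h. All of these changes passed (adjusted p at most 0.0129).

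ACKR3, the scavenging receptor, moved the other way at 6 h and by small amounts. Probe set 212977_at gave 4556, 4513 and 4245 in PBS, 6159, 6326 and 5967 at 6 h, and 3685, 3585 and 3813 at 24 h. The 6 h arrays lay above and the 24 h arrays below all PBS arrays. ACKR3 was 1.38-fold higher at 6 h (log2 fold change 0.47 ± 0.05 SE, limma adjusted p = 0.000276), 1.2-fold lower at 24 h (-0.26 ± 0.05, 0.00515) and 1.66-fold lower at 24 h than at 6 h (4.55e-05). The dimmer 232746_at averaged 158 ± 33.6, 187.9 ± 19.5 and 108 ± 9.91 in PBS, 6 h and 24 h (SD, n = 3 each) and passed only from 6 h to 24 h (-0.72, adjusted p = 0.0232). Against PBS it gave 0.24 at 6 h and -0.47 at 24 h (0.369 and 0.0806). The third probe set was at or below the control level on every array.

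**Figure D2:**
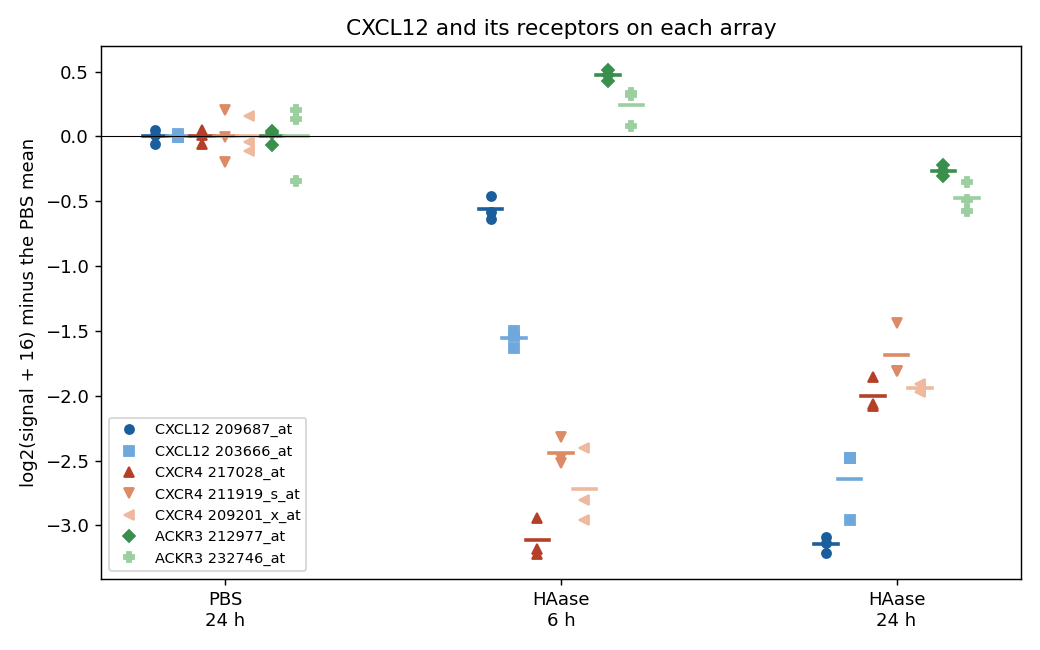
CXCL12, CXCR4 and ACKR3 on each array, as log2(signal + 16) minus the mean of the PBS arrays (points are arrays, bars are group means, n = 3). At 6 h CXCR4 shows the deepest fall (-3.12 for 217028_at) while ACKR3 212977_at is at 0.47, and at 24 h CXCL12 209687_at is at -3.14 and CXCR4 217028_at at -2.003.

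Over the whole set, 6 of the 10 genes passed the filter on low values and were tested. CCL20 passed it only through the treated groups, so the counts are descriptions and support nothing. At 6 h 4 of the 6 passed the test, CCL20 and ACKR3 higher and CXCL12 and CXCR4 lower, where 42.4% of all genes tested passed (15% higher, 27.4% lower). At 24 h 5 passed, CCL20 and CCL5 higher and CXCL12, CXCR4 and ACKR3 lower, where 40.3% of all genes passed (17.5% higher, 22.8% lower). Between 24 h and 6 h all 6 passed, CCL5 and CXCR4 higher and CCL20, CXCL10, CXCL12 and ACKR3 lower, against 33% of all genes (19.7% higher, 13.3% lower). Groups were fully separated for 4 genes at 6 h, 6 at 24 h and 6 between the times, against 54.2%, 52% and 45.9% of all genes. Over probe sets 10 of 18 passed at 6 h, 10 at 24 h and 12 between the times, against 18.1%, 18.3% and 12.3% of all 41091. With arrays scaled to equal medians, the share of higher genes among all those that passed moved from 35.4% to 56.8% at 6 h, from 43.4% to 55.8% at 24 h and from 59.8% to 49.2% between the times, while the 6 members kept their directions. The comparisons with PBS share the same 3 control arrays. Those arrays were harvested at 24 h, so at 6 h the effect of the enzyme and the time of harvest cannot be told apart. Between the 6 h and 24 h treated arrays, the length of treatment and the time of harvest cannot be told apart either.

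**Figure D3:**
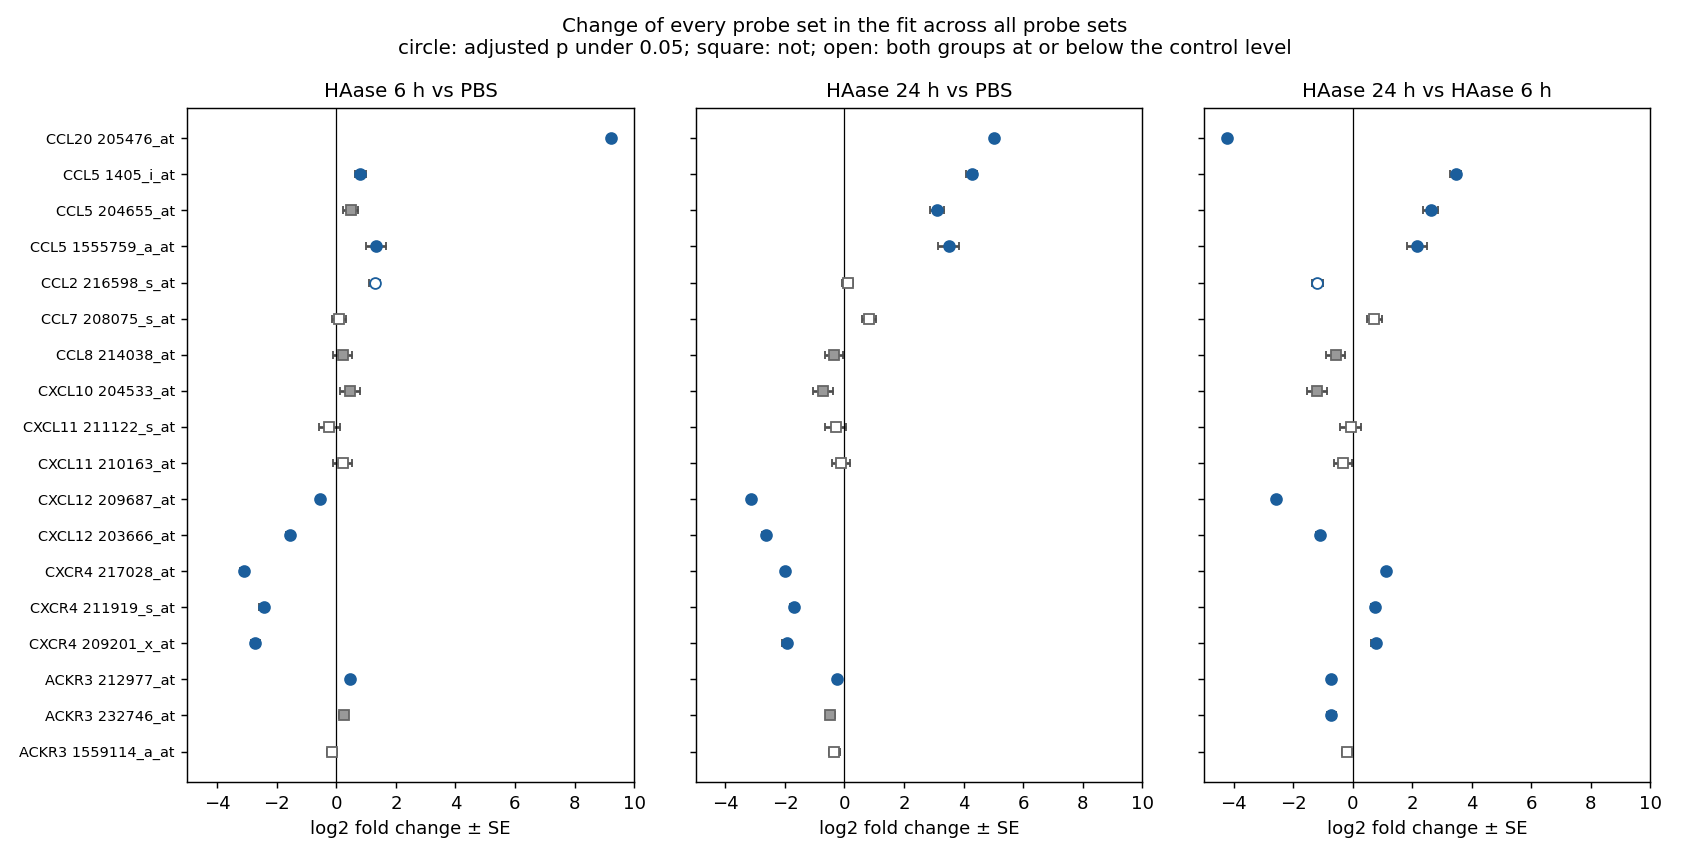
Log2 fold change ± SE of all 18 probe sets in 3 comparisons, from the fit across all 41091 probe sets with 1 gene symbol (circles passed at an adjusted p under 0.05, squares did not, open symbols have both groups at or below the control level). CCL20 stands at 9.21 at 6 h and 5.01 at 24 h relative to PBS levels below the control, and the 3 CXCR4 and 2 CXCL12 probe sets lie left of 0 in both comparisons with PBS.

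The other CC ligands and chemokine receptors were mostly dim, and fewer of the CXC and related ligands were dim on every array. Of 15 other CC ligands on the array 10, and of 19 other chemokine receptors 12, were at or below the control level on all 9 arrays, against 4 of 15 CXC and related ligands. In each of these lists alike, only 1 gene exceeded the control level on all 9 arrays. Among the receptors this was CCR1, which binds CCL5 and CCL7. It averaged 1172 ± 116 in PBS, 2526 ± 142 at 6 h and 3034 ± 119 at 24 h (SD, n = 3 each), log2 fold changes of 1.10 and 1.37 (limma adjusted p = 3.41e-05 and 7.06e-06). It was the 1 of 4 tested receptors that passed, at both times. ACKR1, another tested receptor, exceeded the control level on 8 of 9 arrays. Of 3 other CC ligands tested, none passed at 6 h and CCL26, an eosinophil chemokine, rose at 24 h, from 233.1 ± 6.71 to 447.8 ± 71.4 (log2 fold change 0.89, adjusted p = 0.000288). At 6 h an unadjusted p under 0.05 in limma was reached by 0 of those 3 genes. Of 8 CXC and related ligands tested, 4 rose at both times: the neutrophil chemokine genes CXCL8, CXCL3 and CXCL2, and CXCL16. The other 4 passed at neither time, among them the neutrophil chemokine gene CXCL1 (limma adjusted p = 0.474 at 6 h and 0.0801 at 24 h). Shares that passed at 6 h and 24 h were 50% and 50% for CXC and related ligands and 25% and 25% for receptors. For the other CC ligands they were 0% and 33.3%, and for all genes 42.4% and 40.3%. CXCL8 averaged 100.4 ± 11.1 in PBS, 16553 ± 415 at 6 h and 25099 ± 1772 at 24 h (SD, n = 3 each). CXCL2 rose from 66.5 ± 17.6 to 1024 ± 86.9 at 6 h and 2333 ± 140 at 24 h (SD, n = 3 each), with PBS above the control level on 2 of 3 arrays, and so went on rising where CCL20 fell (log2 fold change from PBS 3.68 and 4.85, adjusted p = 1.53e-06 and 2.68e-07). In PBS CXCL3 and CXCL16 exceeded the control level on only 1 of 3 arrays each. CXCL16 stayed close to it, with means of 46.4, 92.2 and 105.5 in PBS, 6 h and 24 h.

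Regulators of NF-kappaB, a transcription factor that drives many chemokine genes, rose in 12 of 16 and fell in 1 at 6 h (median log2 fold change 0.72, all genes -0.08), and rose in 9 and fell in 2 at 24 h (median 0.34, all genes -0.03). The shares that passed were 81.2% and 68.8%, beside 42.4% and 40.3% of all genes. From 6 h to 24 h 8 of the 16 fell and none rose, where 33% of all genes passed (19.7% higher, 13.3% lower). The list pools inhibitors of NF-kappaB with its subunits and activators, so these counts give no direction of its activity. TNFAIP3, an inhibitor gene, averaged 762.8 ± 104, 2154 ± 65.2 and 1046 ± 119 in PBS, 6 h and 24 h (SD, n = 3 each). RELB, an NF-kappaB subunit, averaged 78.5 ± 16.1 in PBS, 642.2 ± 26.3 at 6 h and 293.1 ± 24.5 at 24 h, and NFKBIZ, an NF-kappaB cofactor, 761.3 ± 27.2, 4020 ± 153 and 2147 ± 92.4 (SD, n = 3 each). Both were highest at 6 h, with limma adjusted p-values of at most 1.43e-05 against PBS at either time. Of 22 upstream cytokine and receptor genes tested, 14 rose and 2 fell at 6 h and 10 rose and 3 fell at 24 h, shares of 72.7% and 59.1% beside 42.4% and 40.3% of all genes. Their median log2 fold changes were 0.47 and 0.15. IL6 averaged 69.7 ± 8.03, 2237 ± 121 and 743.8 ± 60.9 in PBS, 6 h and 24 h. IL1B went on rising, from 418.9 ± 41.9 to 5986 ± 108 and 12685 ± 8.88 (SD, n = 3 each).

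Interferon response genes, the class to which CXCL10 and CXCL11 belong, rose in 5 of 24 and fell in 6 at 6 h (median log2 fold change -0.11), and rose in 6 and fell in 13 at 24 h (median -0.61). The share that passed was 45.8% at 6 h, near the 42.4% of all genes, and 79.2% at 24 h beside 40.3%. With equal array medians the 6 h counts turned to 7 higher and 4 lower (median 0.03), and the 24 h counts stayed at 6 and 13. MX1, an antiviral GTPase gene, averaged 430.8 ± 87.5 in PBS and 58.8 ± 49.5 at 24 h, when it exceeded the control level on 1 of 3 arrays (log2 fold change -2.79, limma adjusted p = 0.00236). IFIT1, an antiviral RNA-binding protein gene, fell by 1.62 on the log2 scale at 6 h, while IRF1, an interferon-induced transcription factor gene, rose by 1.12 (limma adjusted p = 0.000542 and 2.90e-05).

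Genes that carry or quench the receptor signal changed in both directions. Of 22 tested, 5 rose and 3 fell at 6 h, and 4 rose and 5 fell at 24 h, shares of 36.4% and 40.9% beside 42.4% and 40.3% of all genes. With equal array medians 7 rose and 3 fell at 6 h, and 6 rose and 2 fell at 24 h. GRK3, a kinase that desensitises chemokine receptors, fell by 1.10 at 6 h and by 1.17 at 24 h (limma adjusted p = 1.60e-05 and 7.41e-06). ARRB1, the beta-arrestin 1 gene, averaged 453.5 ± 11, 950.1 ± 44.2 and 400.5 ± 23 in PBS, 6 h and 24 h (SD, n = 3 each), and was thus highest at 6 h, as ACKR3 was. Of 18 genes for cleavage and presentation of chemokines, 10 rose and 1 fell at 6 h, and 10 rose and 6 fell at 24 h, shares of 61.1% and 88.9% beside 42.4% and 40.3% of all genes (medians 0.34 and 0.35). They include SDC4, a heparan sulfate proteoglycan gene, at 1109 ± 107, 6356 ± 375 and 3696 ± 124, and TNFAIP6, whose product binds hyaluronan and chemokines, at 7705 ± 323, 22323 ± 215 and 14728 ± 997 (SD, n = 3 each). The protease genes MMP1 and MMP3 were instead highest at 24 h. MMP1 averaged 25.0 ± 4.10, 210.7 ± 4.44 and 4663 ± 81.2, with PBS at or below the control level on all arrays. MMP3 averaged 465.2 ± 84.9, 8200 ± 237 and 18447 ± 1372 (SD, n = 3 each). Hypoxia targets, a class that includes CXCR4 and CXCL12 in other cells, rose in 8 of 15 and fell in 4 at 6 h, and rose in 9 and fell in 1 at 24 h (medians 0.35 and 0.39), shares of 80% and 66.7% beside 42.4% and 40.3% of all genes, with VEGFA 2.72 and 3.26 higher on the log2 scale.

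**Figure D4:**
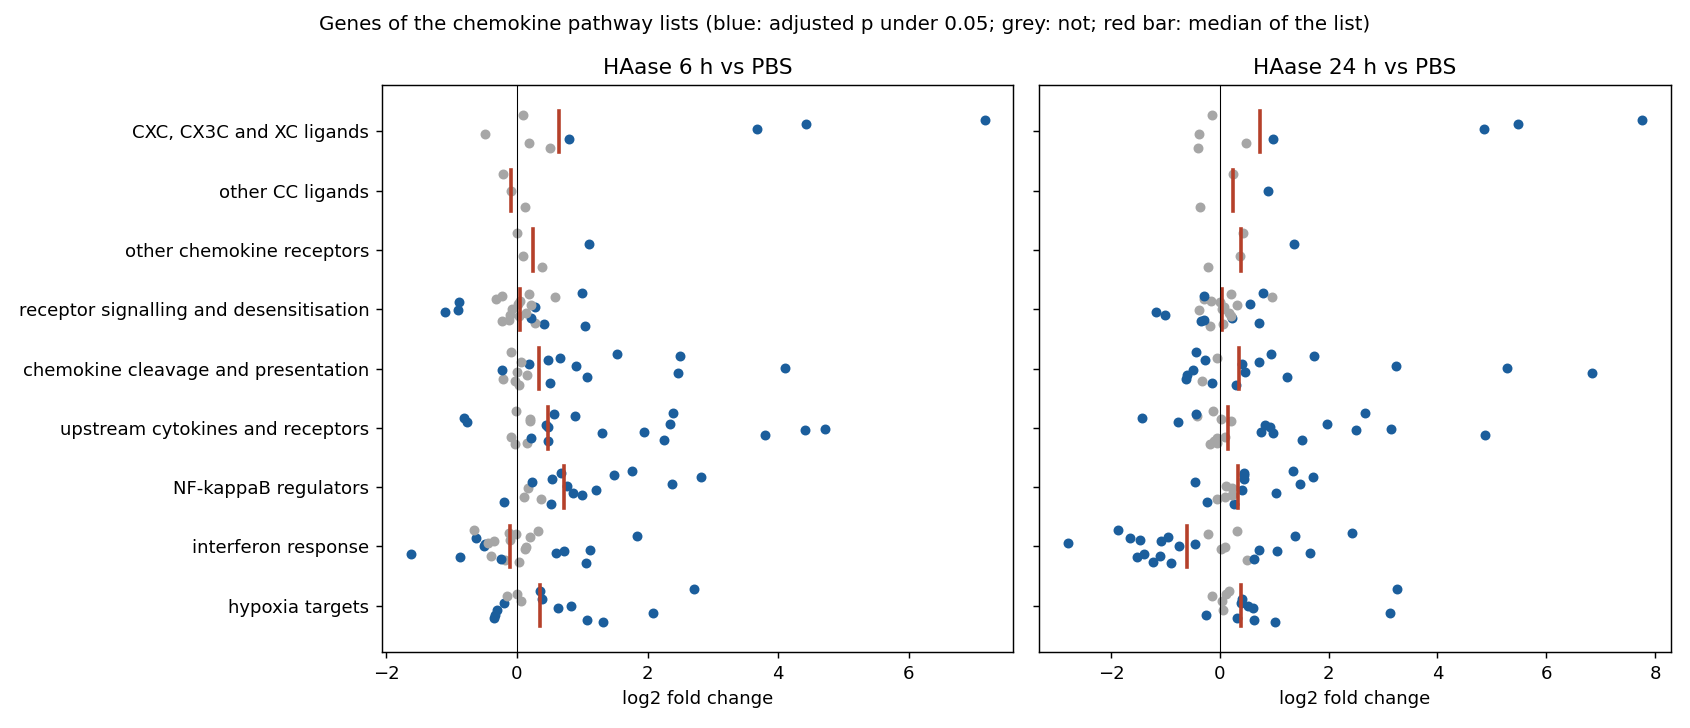
Log2 fold change of each tested gene in 9 lists of the chemokine system against PBS at 6 h and at 24 h (blue points passed at an adjusted p under 0.05, grey did not, red bars are list medians). The NF-kappaB regulators have a median of 0.72 at 6 h and 0.34 at 24 h, and the interferon response genes have -0.11, which turns to 0.03 with equal array medians, and -0.61.

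The genes most like each chemokine gene over the 9 arrays were named by Pearson correlation of log2 values, which follows the 3 groups and is given as a description. Closest to CCL20 were TRIM52 (r = 0.999), MYC and GLRX (0.998 each). MYC, a growth-promoting transcription factor gene, averaged 3064 ± 66.8 in PBS, 7822 ± 124 at 6 h and 5229 ± 9.63 at 24 h (SD, n = 3 each), so all were highest at 6 h. CCL5 was closest to MOCOS (0.991), CREB3L2 (0.988) and LPXN (0.987), and CXCL12 to PPIC (0.999), CCN5 (0.998) and MNDA (0.998). CCN5, a secreted matricellular protein gene, averaged 2954 ± 295, 2035 ± 68.3 and 409.8 ± 14.9 in PBS, 6 h and 24 h, a stepwise order like that of CXCL12. CXCR4 was closest to CFL2 (0.996), GATA3 (0.995) and GTF2IRD1 (0.994), which were lowest at 6 h. GATA3, a transcription factor gene, averaged 1360 ± 69.6, 441.3 ± 31 and 695 ± 15.7. ACKR3 was closest to ST6GALNAC5 (0.989), CDH11 and PDZRN3 (0.988 each). CDH11, a mesenchymal cadherin gene, averaged 411 ± 17.1, 1032 ± 68.6 and 220.8 ± 33.1, highest at 6 h and lowest at 24 h as ACKR3 was. CXCL10, close to the control level, gave lower values with ATAD5 (0.942), AZI2 (0.937) and TESK1 (0.935).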

How the data were processed

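Total RNA from 9 samples of LiSa-2 cells was measured on 1 Affymetrix array each. The deposited values are signal intensity on a linear scale, in tables that the authors made from CHP files for public use. Their own work started from CEL files, so these tables are not what they analysed, by the design text. The summarisation method is not given in the sources used here. Array means, trimmed by 2% at each end, lay between 500.07 and 500.075. Precision is limited by having 3 arrays a group.

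Of 54675 probe sets, the platform annotation gave 1 symbol to 41091, several to 1801 and none to 11721, besides 62 controls. RefSeq held the gene ID of 41037 of the first kind. For each gene the probe set with the highest average log2(signal + 16) was kept. Genes below the 30th percentile (a signal near 32.2) were left out, leaving 13842. limma 3.58.1 in R 4.3.3 fitted 1 mean per group over all arrays, with Benjamini-Hochberg adjustment over all genes and a threshold of 0.05. Fold changes are on the log2(signal + 16) scale and understate those of dim genes. A further fit took all 41091 probe sets without a filter. Where a whole group lay at or below the control level, a fold is a lower bound against that level. The model was tested on simulated data.

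Nothing in the labels says that replicates came from different cultures, and the p-values then cover the spread of these samples alone, which may be technical. No batch is named. The members and lists were chosen with earlier results of these data known. Genes named were the 10 members, genes among the 4 largest changes per list and comparison with PBS that passed without overlap, and the 3 most correlated with each tested member. Marker and RNA quality genes are named from their own lists. CCR6, CXCR3 and CCL11 are named as receptors or neighbours of members, outside that rule and after their values were seen. CXCL1 and ACKR1, from the lists of ligands and receptors, were likewise named outside that rule after their values were seen. Promoter windows are those of RefSeq on GRCh38.p14.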

Additional observations from a re-analysis of the deposited data

Results flagged for a closer look

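All 6 tested genes differed between the 6 h and the 24 h treated arrays by the model's own test of the 2 times. Both times are set against the same PBS arrays of 24 h, so PBS cancels in this test. The length of treatment and the time of harvest cannot be told apart in it. The log2 difference, 24 h minus 6 h, was -4.20 for CCL20, -2.59 for CXCL12, -1.19 for CXCL10 and -0.73 for ACKR3. It was 2.63 for CCL5 and 1.11 for CXCR4. The CXCL10 call was lost under 4 of 18 alternative fits and in the fit across all probe sets (limma adjusted p = 0.0643). ACKR3 passed in opposite directions at the 2 times against PBS.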

How the results depend on the processing

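Each comparison was repeated under 19 alternatives: other pseudocounts, filters, normalizations, variance models and probe set rules, 2 groups only, a replicate block and each array left out. No direction reversed for a called gene, and 330 of 339 values kept their side of the threshold. The exceptions were CXCL10, given in the results, and CCL5 at 6 h, which passed for the mean of its probe sets (log2 fold change 0.87, limma adjusted p = 0.00133), without PBS replicate 2 (0.72, 0.0306) and with the replicate block (0.48, 0.0345). Calls among the members ranged from 5 to 6 at 24 h, 4 to 5 at 6 h and 5 to 7 between the times. Each maximum was reached with no filter, when CCL7 passed at 24 h and CCL2 in the other comparisons. The same maximum was reached at 24 h where CXCL10 passed and at 6 h where CCL5 passed. Genes called ranged from 4550 to 5985, 4628 to 6262 and 3271 to 5051. CXCL10 gave no value under the filter at the 50th percentile. CCL20 at 24 h ran from 3.35 with a pseudocount of 64 to 7.04 with 1, since its PBS level is below the control. Equal array medians moved the median of all genes at 6 h from -0.08 to 0.05. Replicate numbers did not pair the samples: same-numbered arrays of different groups deviated with correlations of -0.05 to 0.04, others with -0.06 to 0.06.

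Dim signals limit CCL2, CCL7, CCL8, CXCL10 and CXCL11, for which 3 arrays a group show only large changes.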
